A study of Homo sapiens with 4 samples.

Results

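Genes of transforming growth factor beta (TGF-beta) and bone morphogenetic protein (BMP) signalling were followed in H1792, an established line from a human lung cancer, after 96 h in DMSO or in ACBI1. The members are 45 genes taken by symbol: 11 ligands, 11 receptors, 8 SMADs, 9 genes for ligand latency or antagonism, 3 ID genes, and SMURF1, SMURF2 and SKIL. All 45 symbols were among the 61228 in the count files, and 43 passed the filter on low counts among 19159 genes tested. ACBI1 is a bifunctional degrader that directs the SWI/SNF ATPases SMARCA2 and SMARCA4, and the subunit PBRM1, to the VHL ubiquitin ligase. It acts on protein, so transcript counts do not check whether its targets were lost. The labels give both groups the genotype WT, 2 libraries each, and the same culture medium and time. They write the ACBI1 dose as 1 mM, a unit that the counts cannot check. DMSO is the solvent control, and nothing in the labels says whether replicates were separate cultures, so the tests measure only the spread between these libraries. All libraries come from 1 cell line, so the results describe that line.

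Most, but not all, ligands of the TGF-beta family bind pairs of type II and type I receptor kinases. These kinases phosphorylate SMAD2 and SMAD3 on the TGF-beta and activin branch, or SMAD1, SMAD5 and SMAD9 on the BMP branch. The phosphorylated SMADs join SMAD4 and enter the nucleus, where they switch on targets that include the feedback inhibitors SMAD6 and SMAD7 and the ID genes. TGF-beta is secreted in a latent form tied to matrix by latent TGF-beta binding proteins, while follistatin, noggin and gremlin trap activins or BMPs outside the cell. In lung epithelium and its tumours the pathway is known for growth restraint, for matrix production and for the shift to a mesenchymal state.

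Gene counts summed to between 64281850 and 86010100 per library, and the 45 members held 0.424% and 0.442% of them with DMSO and 0.282% and 0.288% with ACBI1. Levels are given as CPM, a gene's counts relative to the TMM-scaled size of its library. Keratin genes of epithelial cells were abundant, but NKX2-1, a lung lineage factor, had no count in any library. The summed level of 10 epithelial markers was 982 and 1040 CPM with DMSO against 323 and 202 CPM with ACBI1. Of 6 tested epithelial markers 4 were called lower (edgeR adjusted p under 0.05), all keratins, against 10.6% of all tested genes. KRT7, KRT8 and KRT18 made up nearly all of that sum, and EPCAM, an epithelial adhesion molecule, was at 5.38 and 2.78 against 15.6 and 4.84 CPM (log2 change 1.32, not called). Of 5 fibroblast markers 3 were called lower (summed 356 and 790 against 71.7 and 223 CPM), as were 2 of 3 tested endothelial markers (12.7 and 49.0 against 0.123 and 0.107 CPM). The tested markers of these lists that were not called, PDGFRB, COL1A1 and KDR, had log2 changes of -1.42, -1.90 and -1.98. COL1A1, which was not called, made up most of the fibroblast sum (324 and 693 against 62.3 and 210 CPM). PECAM1 alone made up nearly all of the endothelial sum with DMSO (12.2 and 48.1 CPM). VWF, the other called endothelial marker, had 24 and 23 counts with DMSO and 0 and 0 with ACBI1. Leukocyte markers were near 0 (0.134 to 0.681 CPM summed over 5), with CD3E, MS4A1 and CD163 at 0 counts. The part of these shifts in the results was not tested. All libraries are labelled as the H1792 line, so the markers describe its transcripts. In bulk RNA, fewer cells that express a gene and less of its RNA per cell cannot be told apart.

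Transcripts of 16 of the 43 tested members (37.2%) differed between ACBI1 and DMSO at an adjusted p under 0.05 in edgeR's quasi-likelihood test, 13 lower and 3 higher. Over all tested genes the share was 17.4%, made up of 10.6% lower and 6.75% higher. The members were chosen with earlier results of these data known, so the 2 shares are set side by side without a test. Scaling by library size only gave 10 members lower and 5 higher (9.74% and 9.16% of all genes), DESeq2 gave 15 and 6 (13.6% and 9.95%), and limma-voom gave 12 and 3 (10.5% and 6.83%). Higher members numbered 5 without DMSO replicate 1 (7.48% of all genes), 1 without DMSO replicate 2 (3.94%) and 1 without ACBI1 replicate 1 (2.77%). Lower members numbered 9 to 15 with any 1 library left out, while the share over all genes ran from 6.01% to 12.3%, so both shifted in the whole table as well as in the members. The falls were led by GDF15, INHBA, GREM1, FST and LTBP3, and the rises were BMP6, ID3 and ACVR1B. The 18 tested extracellular members (ligands, latency and antagonist genes) included 10 of the calls, 9 lower and 1 higher, with a median log2 change of -1.02. The 25 receptor and intracellular members included 6 calls, 4 lower and 2 higher, with a median of -0.16. Over all 43 members the median log2 change was -0.35, against 0.01 over all tested genes, and it was -0.60 without DMSO replicate 1 and -0.21 without DMSO replicate 2. The log2 change was at least 1 in size for 14 members, and for 22.6% of all tested genes. The groups did not overlap in CPM for 29 of the 43 members, and for 63.2% of all tested genes. ACBI1 lay below DMSO in 20 of the 29 (32.2% of all tested genes) and above it in 9 (31.1%). The difference between the extracellular and the other members was not tested.

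**Figure D1:**
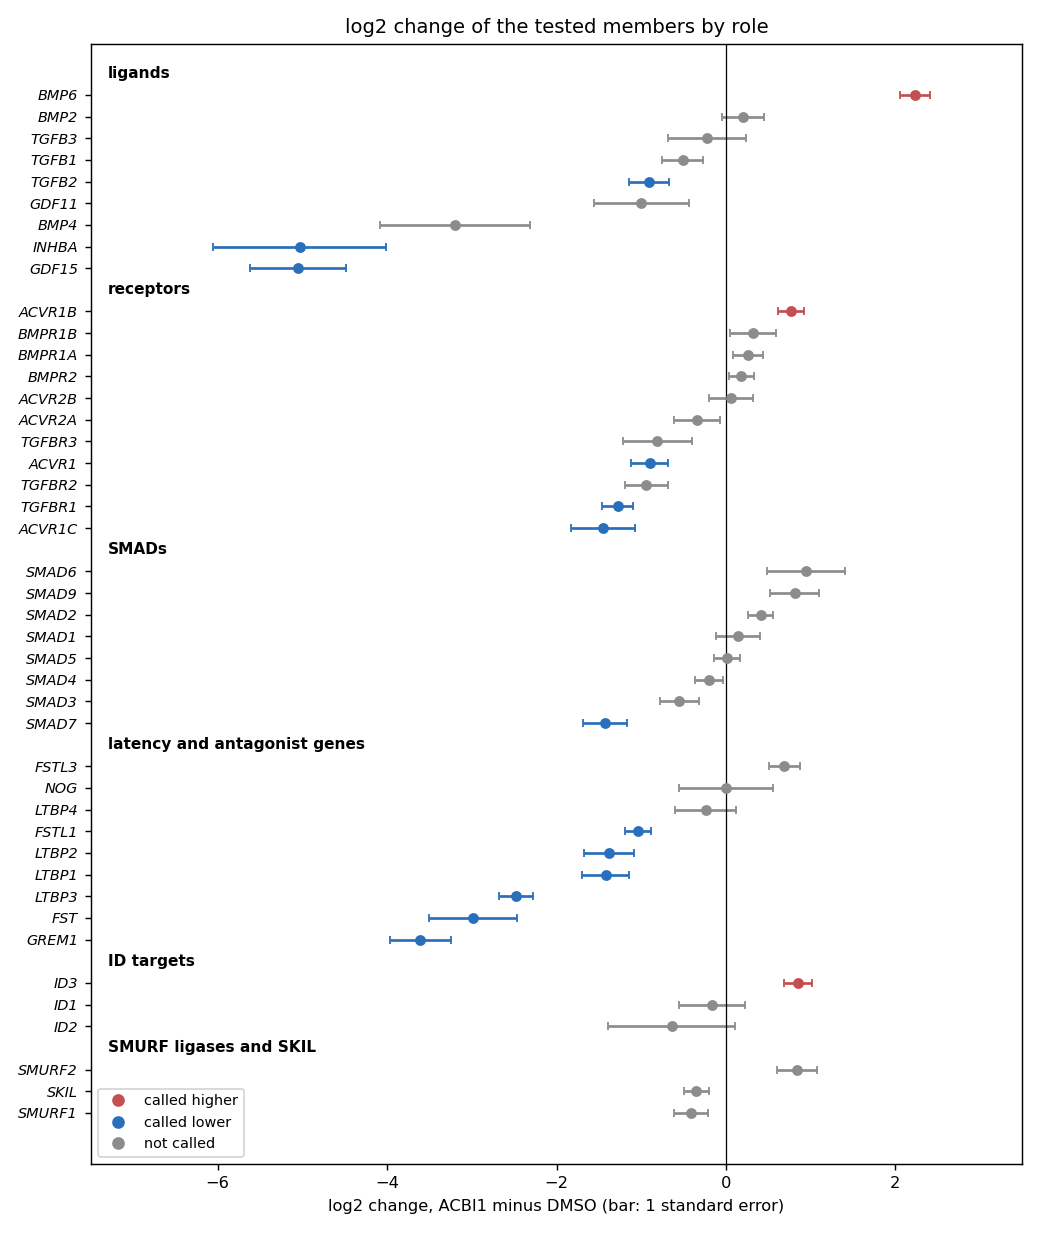
Fitted log2 change (ACBI1 minus DMSO, horizontal axis) of the 43 tested members by role, with 1 standard error as the bar, in red where called higher, blue where called lower and grey where not called. The 6 calls in the latency and antagonist group lie left of 0, from -1.04 for FSTL1 to -3.61 for GREM1, while BMP6 lies farthest right at 2.23.

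RefSeq promoter windows (GRCh38.p14, 250 bases before to 50 after a gene's start) matched 42 of the 45 members, with 75 windows in all; BMP2, BMP7 and NOG have no entry. The 250 bases before the start are shown for 2 called rises and 2 called falls with a single window each, so that members moving in opposite directions can be read side by side. Capitals mark matches, on either strand, to the SMAD box CAGAC, the GC-rich SMAD element GGCGCC, the AP-1 site TGANTCA or the TATA box TATAAA. The BMP6 window is chr6:7725849-7726098 on the plus strand and the ID3 window chr1:23559502-23559751 on the minus strand. The GDF15 window is chr19:18385908-18386157 and the FST window chr5:53480379-53480628, both on the plus strand.
BMP6: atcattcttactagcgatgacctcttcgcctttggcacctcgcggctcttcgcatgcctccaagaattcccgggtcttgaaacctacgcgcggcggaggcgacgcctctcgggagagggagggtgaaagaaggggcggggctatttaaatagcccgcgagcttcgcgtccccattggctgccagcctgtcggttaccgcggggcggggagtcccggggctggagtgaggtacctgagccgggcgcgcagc
ID3: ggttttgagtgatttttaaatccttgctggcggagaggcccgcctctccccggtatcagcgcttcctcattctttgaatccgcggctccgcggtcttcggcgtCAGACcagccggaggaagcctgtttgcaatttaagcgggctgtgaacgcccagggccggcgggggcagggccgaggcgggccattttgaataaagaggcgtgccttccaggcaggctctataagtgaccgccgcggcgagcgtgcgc
GDF15: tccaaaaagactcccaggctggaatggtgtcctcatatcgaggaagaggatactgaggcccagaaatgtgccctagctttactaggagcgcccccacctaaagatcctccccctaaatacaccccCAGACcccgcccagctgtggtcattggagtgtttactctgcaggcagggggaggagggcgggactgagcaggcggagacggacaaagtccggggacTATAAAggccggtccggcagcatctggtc
FST: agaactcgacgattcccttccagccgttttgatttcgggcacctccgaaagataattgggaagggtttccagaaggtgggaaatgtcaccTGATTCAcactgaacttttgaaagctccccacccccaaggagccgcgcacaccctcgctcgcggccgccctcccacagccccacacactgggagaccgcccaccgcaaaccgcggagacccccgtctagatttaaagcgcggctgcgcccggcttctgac
BMP6 shows none of these letters in the window, ID3 has a SMAD box that begins 147 bases before the start, and GDF15 has a SMAD box at 125 and a TATA box at 29 bases before it. FST has a match to TGANTCA at 160 bases before the start, TGATTCA, whose centre is not that of the AP-1 consensus. Of the 75 member windows of 300 bases, 48.0% hold the SMAD box, against 45.3% of all 35114 windows. The GC-rich element is in 25.3% against 19.2%, the looser pattern TGANTCA in 6.67% against 7.71%, and the TATA box in 13.3% against 11.5%. These are matches of letters and were not tested for binding.

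Among the 11 ligands, 9 were tested, 3 were lower and 1 was higher (10.6% and 6.75% of all tested genes). The median log2 change over the 9 was -0.91. Leaving out DMSO replicate 2 moved that median to -0.25, and leaving out ACBI1 replicate 1 moved it to -0.50. GDF15, a stress-induced cytokine of the family, was at 136 and 56.6 CPM in the DMSO libraries and at 3.91 and 1.85 CPM in the ACBI1 libraries. Both ACBI1 values lay far below both DMSO values, and the log2 change was -5.05 (SE 0.57, edgeR adjusted p 0.0054), a 33.1-fold fall. The log2 change was -4.29 without DMSO replicate 1 and -5.70 without ACBI1 replicate 1. INHBA, which encodes the subunit of activin A, had 81 and 24 counts with DMSO and 3 and 0 with ACBI1, so it was rare in both groups. The depth-scaled ratio of DMSO to ACBI1 was 35.4, with an exact 95% interval of 11.8 to 174 for counting error alone, with an edgeR adjusted p of 0.0251. The fitted log2 change of INHBA was -5.03, or -4.03 without DMSO replicate 1, -8.61 without ACBI1 replicate 1 and -4.26 without ACBI1 replicate 2.

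BMP6, a ligand of the BMP branch, stood at 13.2 and 13.0 CPM with DMSO and at 67.3 and 55.7 CPM with ACBI1. Its replicates lay close together in each group, and it rose 4.70-fold (log2 change 2.23, SE 0.18, edgeR adjusted p 0.00231). BMP4, another BMP ligand, was at 3.01 and 17.8 CPM with DMSO and 0.681 and 1.60 CPM with ACBI1. The groups did not overlap, but the DMSO replicates themselves differed 5.92-fold, and the edgeR adjusted p was 0.0568 (log2 change -3.20, SE 0.89). Without a filter on low counts, edgeR gave far smaller adjusted p for several members (GDF15: 3.32e-86, against 0.0054 with the filter), and the cause was not tested. BMP4 was called lower under 2 of 7 alternatives, that fit (adjusted p 4.47e-16) and DESeq2 (adjusted p 0.0423). Under the rest of the 7 BMP4 was not called, with adjusted p from 0.0557 to 0.117. The edgeR fit with a replicate block, which is not among the 7, called BMP4 lower (log2 change -2.86, adjusted p 3.25e-05). That fit called 21.9% of all tested genes lower. The log2 change of BMP4 was -3.98 without DMSO replicate 1, -3.94 without ACBI1 replicate 2 and -1.41 without DMSO replicate 2. BMP2 overlapped between groups, with 20.4 and 13.3 against 18.8 and 20.1 CPM (edgeR adjusted p 0.613). BMP7 had 0 and 2 counts with DMSO and 2 and 0 with ACBI1, and INHBB had 1 and 1 against 1 and 0, so neither was tested.

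TGFB1 encodes the most abundant of the 3 TGF-beta isoforms in these cells. Per kilobase of exons, it made up 93.0% to 94.6% of the summed TGFB1, TGFB2 and TGFB3 level in each library. TGFB1 was at 547 and 762 CPM with DMSO and at 404 and 517 CPM with ACBI1, groups that did not overlap, but at an edgeR adjusted p of 0.189 the log2 change of -0.51 (SE 0.24) missed the threshold. TGFB2 was at 40.5 and 63.5 CPM with DMSO and 28.0 and 27.1 CPM with ACBI1, a called fall with a log2 change of -0.91 (SE 0.24, edgeR adjusted p 0.048). That call was lost with upper-quartile scaling (adjusted p 0.0546), library size only (0.0633) and limma-voom (0.0602). It was also lost without DMSO replicate 2 (log2 change -0.55, adjusted p 0.154), ACBI1 replicate 1 (-0.94, 0.122) or ACBI1 replicate 2 (-0.90, 0.118), and 26.6% of its exonic length is shared with TGFB2-OT1. TGFB3 and GDF11 overlapped between groups. GDF11, a ligand of the activin branch, was at 19.5 and 51.6 CPM with DMSO and 10.3 and 25.2 CPM with ACBI1. It was not called (edgeR adjusted p 0.262) but was called lower without a filter on low counts (adjusted p 0.000126) and without DMSO replicate 1 (log2 change -1.54, adjusted p 0.0264).

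**Figure D2:**
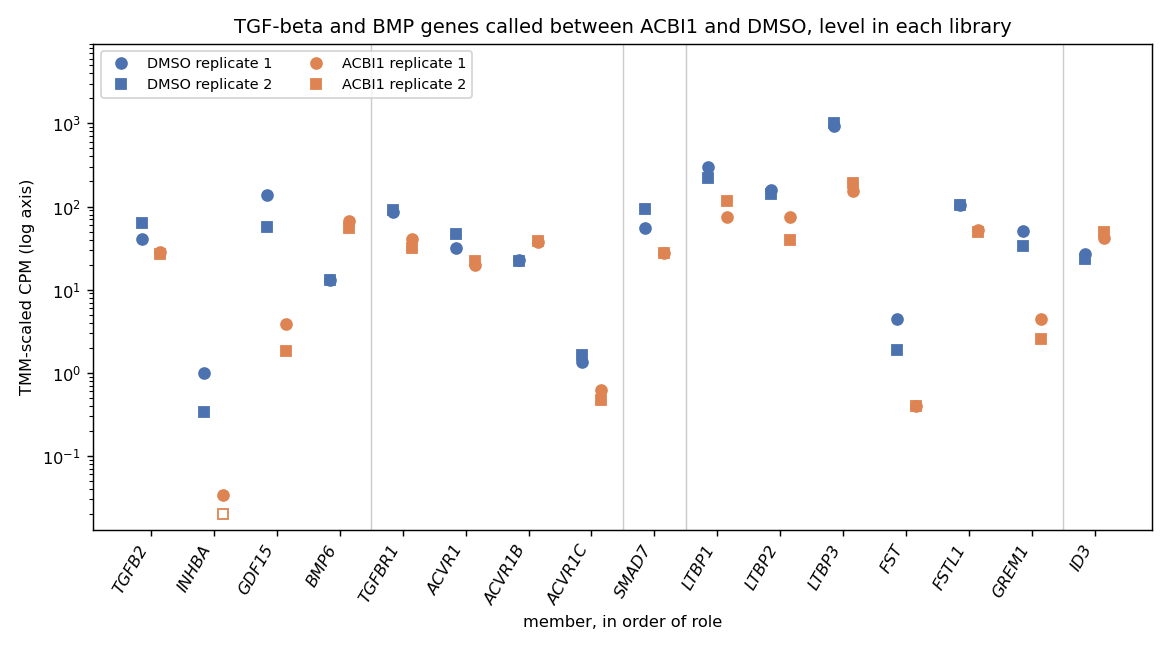
TMM-scaled CPM (log axis) of the 16 called members in each of the 4 libraries, blue for DMSO and orange for ACBI1, circles for replicate 1 and squares for replicate 2; vertical lines separate roles, and the open square is a count of 0. In each of the 16 genes the orange points lie on one side of the blue ones, by the widest margin in INHBA, GDF15 and GREM1. The groups also did not overlap in 63.2% of all tested genes.

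The 11 receptor genes were each tested, with 3 lower and 1 higher (10.6% and 6.75% of all tested genes) and a median log2 change of -0.34. TGFBR1, the type I receptor for TGF-beta, was at 85.5 and 91.4 CPM with DMSO and at 40.8 and 31.8 CPM with ACBI1. Both ACBI1 libraries were under those of DMSO by a wide margin, a log2 change of -1.28 (SE 0.18, edgeR adjusted p 0.00935). TGFBR2, its type II partner, was at 170 and 138 CPM with DMSO and 63.2 and 97.7 CPM with ACBI1. Its groups did not overlap either, and the log2 change of -0.94 (SE 0.25) just missed the threshold (edgeR adjusted p 0.0511). TGFBR2 was called lower under 5 of 7 alternatives, with adjusted p from 8.69e-05 to 0.0539, and without DMSO replicate 2 (log2 change -1.08, adjusted p 0.0293) or ACBI1 replicate 2 (-1.29, 0.0255). TGFBR3, the co-receptor betaglycan, overlapped between groups (6.71 and 14.5 against 5.12 and 6.99 CPM, edgeR adjusted p 0.22). Its log2 change was -0.81, and it ranged from -1.26 to -0.15 with 1 library left out.

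ACVR1B and ACVR1C encode type I receptors for activin-like ligands, and ACVR1 encodes one used mainly by BMPs. ACVR1B was at 22.6 and 22.3 CPM with DMSO and rose to 37.5 and 38.9 CPM with ACBI1 (log2 change 0.77, SE 0.15, edgeR adjusted p 0.0244). ACVR1 fell from 31.7 and 46.3 CPM to 19.8 and 21.9 CPM (log2 change -0.90, SE 0.22, edgeR adjusted p 0.0424). ACVR1C was rare, at 1.36 and 1.65 against 0.626 and 0.473 CPM, and was called lower (log2 change -1.45, SE 0.38, edgeR adjusted p 0.0477). In all 3 genes the groups did not overlap, as in 63.2% of all tested genes, but each call was lost in some fits on 3 libraries. ACVR1B kept log2 changes of 0.73 to 0.80, with adjusted p of 0.068, 0.0938 and 0.104 without DMSO replicate 2, ACBI1 replicate 1 and ACBI1 replicate 2. ACVR1 had log2 changes of -0.60, -0.83 and -0.99 without the same libraries (adjusted p 0.143, 0.147 and 0.0822), and its call was also lost with library size only (0.0544) and limma-voom (0.0509). ACVR1C was not called without any 1 of the 4 libraries (log2 change -1.67 to -1.28), or with upper-quartile scaling (0.0517) or library size only (0.0574).

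Receptors for BMPs, BMPR1A, BMPR1B and BMPR2, had log2 changes of 0.26, 0.32 and 0.18, none of them called. BMPR2, the type II receptor, was at 84.6 and 89.0 CPM with DMSO and at 96.1 and 100 CPM with ACBI1, and BMPR1A was at 37.4 and 43.2 against 43.2 and 53.4 CPM. The activin type II receptors ACVR2A and ACVR2B were not called either, with log2 changes of -0.34 and 0.06. Per kilobase of exons, TGFBR1 made up 42.5% and 39.3% of the summed level of the 6 type I receptors with DMSO and 25.6% and 20.1% with ACBI1. ACVR1B went from 13.5% and 11.5% to 28.2% and 29.5% of the same sum. These shares do not depend on scaling between libraries, and they do depend on the exonic lengths taken from GENCODE.

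**Figure D3:**
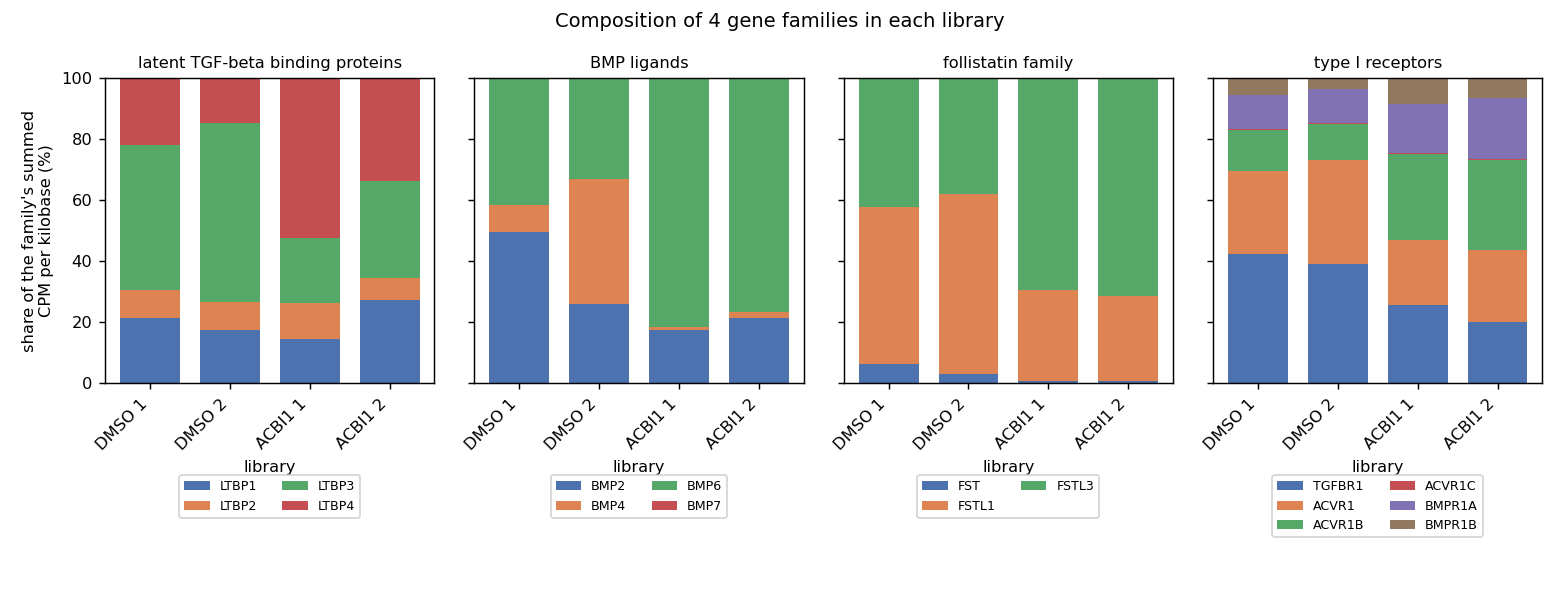
Share of each gene in its family's summed CPM per kilobase of exons (vertical axis, %) in the 4 libraries, for latent TGF-beta binding proteins, BMP ligands, the follistatin family and type I receptors. BMP6 makes up 41.6% and 33.0% of the BMP ligands with DMSO and 81.6% and 76.7% with ACBI1, and FSTL3 goes from 42.1% and 37.8% to 69.3% and 71.2% of its family.

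Of 8 SMAD genes, each tested, SMAD7 was the sole call, and the median log2 change was 0.07. That 1 call is 12.5% of the 8, while 17.4% of all tested genes were called in either direction and 10.6% as lower. SMAD7, the inhibitory SMAD that TGF-beta induces as feedback, was at 55.2 and 92.7 CPM with DMSO and at 27.5 CPM in each ACBI1 library. The fall had a log2 change of -1.43 (SE 0.26, edgeR adjusted p 0.019) and was called under all 7 alternatives and without any 1 library. SMAD6, the inhibitory SMAD of the BMP branch, overlapped between groups, at 5.37 and 9.45 against 8.67 and 20.0 CPM (log2 change 0.95, edgeR adjusted p 0.207). It was called higher in 1 of 7 alternatives, the fit without a filter on low counts (adjusted p 0.00952). The pair of inhibitory SMADs thus had log2 changes of opposite sign, and the difference between them was not tested.

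SMAD3 and SMAD2 carry the TGF-beta signal. SMAD3 was at 435 and 302 CPM with DMSO and at 235 and 269 CPM with ACBI1, groups that did not overlap, but the edgeR adjusted p was 0.147 (log2 change -0.55, SE 0.23). SMAD3 was called lower in 1 of 7 alternatives, the edgeR fit without a filter on low counts (adjusted p 0.0444). Its log2 change ranged from -0.79 to -0.26 with 1 library left out. SMAD2 was at 116 and 109 against 154 and 145 CPM, with a log2 change of 0.41 (edgeR adjusted p 0.121). SMAD9, of the BMP branch, was at 9.21 and 6.94 CPM with DMSO and 16.9 and 11.3 CPM with ACBI1 (log2 change 0.81, edgeR adjusted p 0.11), and was called under 2 of 7 alternatives. SMAD1 and SMAD5, also of the BMP branch, and the shared partner SMAD4 overlapped between groups, with log2 changes of 0.14, 0.01 and -0.20.

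The 9 latency and antagonist genes had the lowest median of the 6 role groups, a log2 change of -1.38. Of the 9, 6 were called, each lower, against 10.6% of all tested genes called lower. LTBP3, one of the proteins that fold and anchor latent TGF-beta, was at 921 and 1020 CPM with DMSO and at 154 and 194 CPM with ACBI1. It fell 5.58-fold with little spread between replicates (log2 change -2.48, SE 0.20, edgeR adjusted p 0.00255), and it had the most counts of any member in both DMSO libraries. LTBP1 fell from 297 and 218 CPM to 74.4 and 118 CPM (log2 change -1.42, SE 0.28, edgeR adjusted p 0.0231). Its call was lost without ACBI1 replicate 1 (log2 change -1.12, adjusted p 0.0599). LTBP2 fell from 156 and 140 CPM to 74.0 and 39.9 CPM (log2 change -1.38, SE 0.30, edgeR adjusted p 0.0301). LTBP4 overlapped between groups, at 336 and 201 against 293 and 162 CPM (log2 change -0.24, edgeR adjusted p 0.685). Per kilobase of exons, LTBP3 made up 47.4% and 58.6% of the 4 genes' summed level with DMSO and 21.5% and 31.7% with ACBI1. LTBP4 made up 22.0% and 14.7% with DMSO and 52.1% and 33.7% with ACBI1.

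Among the 5 secreted antagonists, GREM1, FST and FSTL1 were called lower, against 10.6% of all tested genes. GREM1, which encodes the BMP trap gremlin, was at 51.2 and 33.9 CPM with DMSO and at 4.39 and 2.53 CPM with ACBI1. The 12.2-fold fall (log2 change -3.61, SE 0.36, edgeR adjusted p 0.00395) left both ACBI1 libraries far below DMSO. FST, the activin antagonist follistatin, was low throughout, at 4.48 and 1.86 CPM with DMSO and 0.402 and 0.397 CPM with ACBI1. Its log2 change was -2.99 (SE 0.52, edgeR adjusted p 0.0168), or -2.22 without DMSO replicate 1. FSTL1, a secreted relative of follistatin, fell from 105 and 104 CPM to 52.0 and 49.5 CPM, a log2 change of -1.04 (SE 0.15, edgeR adjusted p 0.00946) that ranged from -1.08 to -1.02 with 1 library left out.

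FSTL3, a follistatin relative that also binds activin, moved the other way, at 30.2 and 23.4 CPM with DMSO and 42.1 and 44.1 CPM with ACBI1. The groups did not overlap, and the log2 change of 0.69 (SE 0.18) just missed the threshold (edgeR adjusted p 0.0516). FSTL3 was called higher under 5 of 7 alternatives, with adjusted p from 0.0161 to 0.0538, and without DMSO replicate 1 (log2 change 0.88, adjusted p 0.0273). NOG, the BMP antagonist noggin, was at 2.59 and 9.42 CPM with DMSO and at 5.75 and 6.25 CPM with ACBI1, so that the ACBI1 values lay between those of DMSO (edgeR adjusted p 1).

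ID genes encode inhibitors of helix-loop-helix transcription factors and are classic BMP targets. ID3 was at 27.0 and 23.4 CPM with DMSO and rose to 41.8 and 48.7 CPM with ACBI1 (log2 change 0.85, SE 0.17, edgeR adjusted p 0.0256). The call was lost without DMSO replicate 2 (log2 change 0.75, adjusted p 0.0757), ACBI1 replicate 1 (0.96, 0.0524) or ACBI1 replicate 2 (0.72, 0.108), though the direction held. ID1 was by far the most abundant ID gene, with 79.7% to 92.1% of the summed level per kilobase. It stood at 115 and 239 CPM with DMSO and at 121 and 196 CPM with ACBI1, so its groups overlapped (log2 change -0.16, edgeR adjusted p 0.812). ID2 also overlapped, at 1.46 and 7.78 against 3.78 and 2.15 CPM (edgeR adjusted p 0.598).

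SMURF1 and SMURF2 are ubiquitin ligases that target SMADs and receptors, and SKIL is a SMAD corepressor. None of the 3 was called by limma-voom, or by edgeR with TMM scaling, the filter on low counts and no replicate block. In that edgeR fit 1 had an unadjusted p under 0.05, and DESeq2 called 1 higher, SMURF2 in both cases. Over all tested genes those shares were 33.9% and 9.95%. The groups did not overlap in any of the 3, nor in 63.2% of all tested genes. SMURF2 was at 58.8 and 47.7 CPM with DMSO and at 114 and 76.2 CPM with ACBI1, with a log2 change of 0.84 (SE 0.24, edgeR adjusted p 0.0608). It was called higher under 3 of 7 alternatives, with adjusted p from 0.000785 to 0.0668, and without DMSO replicate 1 (adjusted p 0.0346) or ACBI1 replicate 2 (log2 change 1.09, adjusted p 0.0299). SMURF1 was at 113 and 103 against 94.6 and 67.9 CPM (log2 change -0.41, edgeR adjusted p 0.216), and 11.7% of its exonic length is overlapped by TRRAP on the other strand. SKIL was at 99.2 and 108 against 84.6 and 77.8 CPM (log2 change -0.35, edgeR adjusted p 0.17).

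Several members spread widely between replicates of one group, which bears on what could be called. DMSO replicate 2 exceeded DMSO replicate 1 by 5.92-fold for BMP4, 5.33-fold for ID2, 3.64-fold for NOG, 2.65-fold for GDF11, 2.62-fold for TGFB3, 2.16-fold for TGFBR3 and 2.09-fold for ID1. In the ACBI1 libraries replicate 2 was also above replicate 1 for BMP4 (2.35-fold), GDF11 (2.44-fold) and ID1 (1.62-fold), but not for ID2. INHBA, FST and GDF15 were higher in DMSO replicate 1, by 2.98-fold, 2.41-fold and 2.40-fold. Over the 43 members, replicate 2 lay on the same side of replicate 1 in both groups for 67.4%, and over all tested genes for 68.0%.

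**Figure D4:**
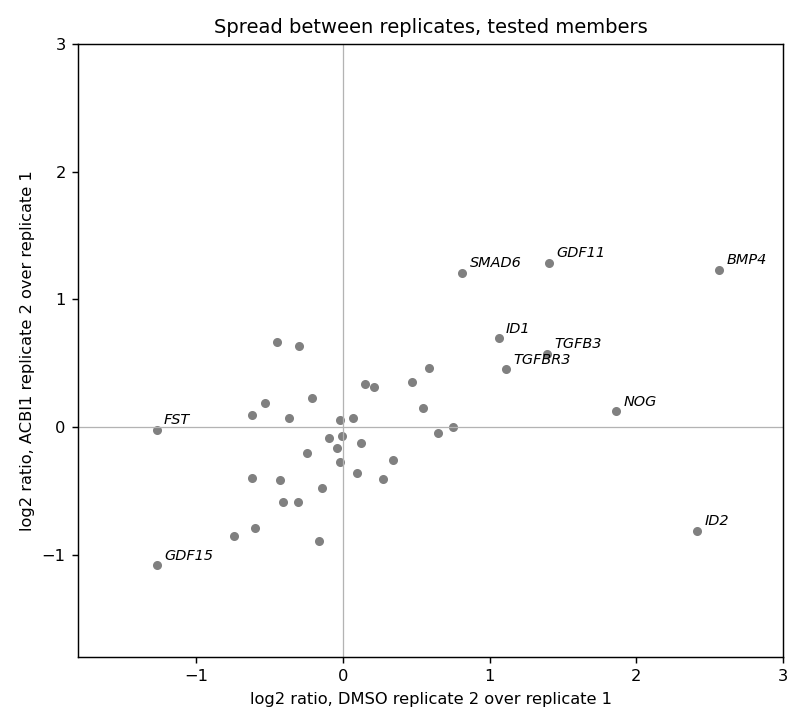
log2 ratio of replicate 2 over replicate 1 with DMSO (horizontal axis) and with ACBI1 (vertical axis), 1 point per tested member, without INHBA, which had a count of 0 in ACBI1 replicate 2. BMP4, GDF11, ID1 and SMAD6 are higher in replicate 2 of both groups, GDF15 is lower in both, and ID2 has opposite signs.

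Other genes of the pathway were counted in 5 lists with 87 symbols, of which 86 were in the files and 57 were tested. Of these, 21 were lower and none higher (36.8% called, against 17.4% of all tested genes), and an unadjusted p under 0.05 was reached by 30 (33.9% of all tested genes). DESeq2 called 3 of them higher, and limma-voom called none higher. The lists were chosen with earlier results of these data known, so the shares called in them do not test for a common change. Among other ligands, 2 of 10 tested genes were lower. INHBE, which encodes the activin E subunit, was at 85.1 and 104 CPM with DMSO and at 0.514 and 0.808 CPM with ACBI1. That is a 145-fold fall (log2 change -7.18, SE 0.30, edgeR adjusted p 0.000851), larger than that of any member. LEFTY1, an antagonist of Nodal, was rare (18 and 90 counts against 5 and 1) and called lower (log2 change -4.22, edgeR adjusted p 0.0452). It was not called without DMSO replicate 2 (-2.50, 0.117), ACBI1 replicate 1 (-5.43, 0.0672) or ACBI1 replicate 2 (-3.69, 0.0917), or with limma-voom (0.0801). Without DMSO replicate 1 its log2 change was -4.99. Another gene overlaps 46.6% of its exonic length, and LEFTY2 is a close copy.

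Genes that hold or activate latent TGF-beta at the cell surface were among 4 called lower of 8 tested receptors, co-receptors and latency factors. The share called lower over all tested genes was 10.6%. ITGB8, the integrin subunit that frees TGF-beta from its latent complex, fell from 51.7 and 78.5 CPM to 4.24 and 7.79 CPM (log2 change -3.44, SE 0.37, edgeR adjusted p 0.00462). LRRC32, which tethers latent TGF-beta, was at 0.774 and 0.987 against 0.101 and 0.061 CPM (log2 change -3.39, edgeR adjusted p 0.0104). NRROS, a relative of LRRC32, had a log2 change of -1.35 (edgeR adjusted p 0.0459), and CD109, a TGF-beta co-receptor, one of -1.06 (edgeR adjusted p 0.0117). CD109 was not called without ACBI1 replicate 1 (-0.97, 0.0635). NRROS was not called with library size only (0.0565) or without DMSO replicate 2 (-1.19, 0.146), ACBI1 replicate 1 (-1.61, 0.0869) or ACBI1 replicate 2 (-1.14, 0.174). Among other antagonists 1 of 4 tested was lower, BMPER, with a log2 change of -2.26 (edgeR adjusted p 0.035), but not without DMSO replicate 2 (-1.74, 0.11), ACBI1 replicate 1 (-1.96, 0.132) or ACBI1 replicate 2 (-2.61, 0.0576).

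Of 16 tested SMAD co-regulators 1 was called, PMEPA1, a TGF-beta-induced gene whose product restrains SMAD signalling. It fell from 529 and 428 CPM to 173 and 151 CPM (log2 change -1.56, SE 0.19, edgeR adjusted p 0.00687), while the median of the list was -0.04. Of 19 tested genes known to respond to TGF-beta or BMP, 13 were lower and none higher, with a median log2 change of -1.90. An unadjusted edgeR p under 0.05 was reached by 18. Over all tested genes 10.6% were lower and 33.9% had an unadjusted p under 0.05. The list was chosen with earlier results of these data known, so its counts do not test whether such genes fell together. ATOH8, a BMP target, was at 4.88 and 19.0 against 0.168 and 0.183 CPM (log2 change -6.08, edgeR adjusted p 0.00746), or -6.75 and -4.79 without DMSO replicate 1 and 2. IL11 had a log2 change of -3.22 (edgeR adjusted p 0.0181), or -2.41 without DMSO replicate 1. SNAI2, a transcription factor of the mesenchymal state, had one of -3.01 (edgeR adjusted p 0.0138), or -3.74 without ACBI1 replicate 2. Many genes of this list answer to other pathways too, and it shares COL1A1 with the fibroblast markers.

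**Figure D5:**
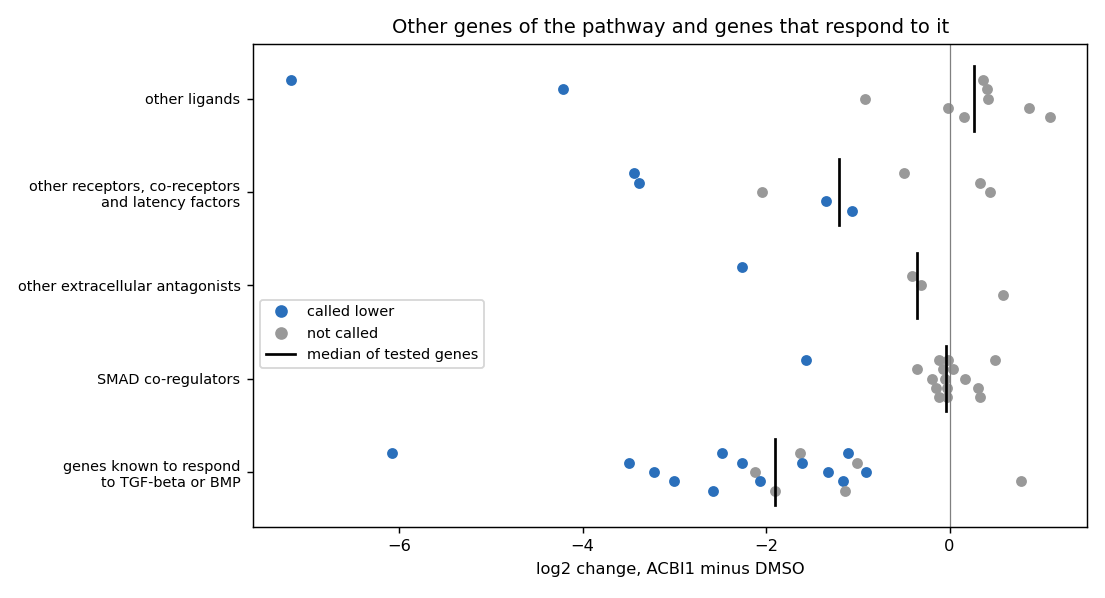
Fitted log2 change (ACBI1 minus DMSO, horizontal axis) of the 57 tested genes in 5 lists outside the members, 1 point per gene, blue where called lower and grey where not called, with the median of each list as a vertical bar. Genes known to respond to TGF-beta or BMP have a median of -1.90, while SMAD co-regulators cluster near 0 with a median of -0.04.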

How the data were processed

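RNA-seq gene counts from 4 libraries were used, 2 with DMSO and 2 with ACBI1, grouped by title. The deposited values are raw counts per gene symbol in the layout of htseq-count, not normalized. TopHat2 2.1.1, HTSeq 0.11.0 and hg38 are named in the submitters' processing notes, without roles; the annotation and strand setting are not given in the sources used here. Without a stated strand setting, reads of overlapping genes may be misassigned. Reads in genes were 84.6% to 86.1% of all reads listed; the lines for other reads were left out of library sizes and tests.

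Genes were filtered with filterByExpr (minimum count 10, minimum total count 15), scaled by TMM and compared by treatment alone in edgeR 4.0.16 under R 4.3.3 (quasi-likelihood, two-sided), with Benjamini-Hochberg adjustment over 19159 genes and a threshold of 0.05. CPM use TMM-scaled library sizes. A log2 change is ACBI1 minus DMSO. No single value was tested by permutation, since the smallest exact p for 2 against 2 is 0.333. Intervals cover counting error only. Alternatives were other scalings and filters, a replicate block, DESeq2 1.42.0, limma-voom (limma 3.58.1), a threshold of 0.01 and each library left out, which assumes that the lone library varies like the other group. The 7 alternatives cited beside single genes are the scalings, filters and tools (6 for rare genes). For TGFBR2, FSTL3 and SMURF2 the low end of the adjusted p came from the fit without a filter on low counts. That fit gave far smaller adjusted p than the filtered fit for many called members, so its values are not read as stronger evidence. Scripts were tested on simulated data. Exonic lengths and overlaps came from GENCODE 29 by symbol.

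Members and lists were chosen with earlier results of these data known. Every member is accounted for; those called, or with a log2 change of 1 or more either way, have their values in every library, and up to 4 called genes are named in each other list. The values of 1 gene that this rule names are not reported here.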

Additional observations from a re-analysis of the deposited data

How the results depend on the processing

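Counts of calls (3 members higher and 13 lower, 0 and 21 other pathway genes, 1294 and 2037 over all genes) moved by over 1.5 times in the settings that follow. With library size only, 5 members and 2 other pathway genes were higher. Without a filter on low counts, 7 members and 2 other pathway genes were higher; over all genes 2202 were higher and 3316 lower, but of 32871 tested, so that the shares were 6.7% and 10.1%. With DESeq2, 6 members and 3 other pathway genes were higher. At a threshold of 0.01, 1 member was higher and 5 lower, 9 other pathway genes were lower, and over all genes 172 were higher and 611 lower. With the replicate block, 8 members were higher and 21 lower, 5 other pathway genes were higher, and over all genes 3708 were higher and 4201 lower (19.4% and 21.9%). Members called with the block but not by the fit without it were TGFB1, GDF11, BMP4, TGFBR2, TGFBR3, SMAD3, SMURF1 and SKIL (lower) and SMAD2, SMAD6, SMAD9, FSTL3 and SMURF2 (higher). Nothing in the labels ties a replicate number to a batch or day; deviations of same-numbered libraries correlated at 0.518 across 19159 genes, which are not independent replicates. Beyond the number of genes tested and the stricter threshold, the cause was not tested.

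With 1 library left out, 1 to 5 members were higher and 9 to 15 lower, and 0 to 1 other pathway genes were higher and 15 to 27 lower; over all genes 531 to 1434 were higher and 1151 to 2365 lower. Fewer libraries enter those fits. The log2 change of uncalled members changed sign in them: TGFB3 ranged from -0.76 to 0.63, BMP2 from -0.07 to 0.54, ACVR2B from -0.21 to 0.40, SMAD1 from -0.13 to 0.45, SMAD5 from -0.07 to 0.08, LTBP4 from -0.72 to 0.18, ID1 from -0.60 to 0.47 and ID2 from -1.39 to 1.02. NOG, at 0 with all libraries, ranged from -0.65 to 1.21. SMAD5 was also at -0.01 with a filter of at least 5 CPM. No called member changed sign under any alternative. Scaling by library size only gave 1755 higher and 1866 lower over all genes and moved the median of all genes from 0.01 to 0.09. Depth limits INHBA, INHBB and BMP7, with 3 counts or fewer in a group.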
